A study of Mus musculus with 10 samples.

Results

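The transcripts described here are those of the cytoplasmic actins Actb and Actg1 and of the small proteins that bind actin monomers: the thymosins Tmsb4x and Tmsb10, the profilins Pfn1 and Pfn2, and the cofilin family of Cfl1, Cfl2 and Dstn (destrin). Of these 9 named genes, 8 had a row among the 6147 genes of the deposited table, and Tmsb10 was not analysed here. The genes were chosen by name, with their measured TPM in these libraries already known, so every level and difference given for them is a description and carries no test. TPM (transcripts scaled to a fixed total in each library) is the share of a gene's transcripts after division by gene length.

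The libraries came from neocortex of CD1 mice, an outbred laboratory strain, at 5 ages, of which 4 precede birth (E12.5, E14, E15.5 and E17, where the number is the day of gestation) and the last is the day of birth (P0). All animals were wild type, no treatment is named, and each age had 2 libraries, 10 in all. RNA was taken from the cleared detergent lysate of frozen, pulverised tissue and selected for poly(A) tails. The labels do not say whether the libraries of an age came from separate animals, pools or litters. A p-value here therefore weighs a difference between ages against the spread between libraries of an age, which may be technical.

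Actin exists as monomers and as filaments that grow and shrink at their ends. Thymosin beta 4, the product of Tmsb4x, holds monomers in a reserve, profilin carries monomers to growing ends and recharges them with ATP, and cofilin and destrin sever filaments and return their subunits to the pool. Growth cones, dividing progenitors and migrating neurons all depend on this cycle. Pfn2 is the profilin known mainly from neurons, Pfn1 is found in most cell types, and Cfl1 is the main cofilin outside muscle.

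In the GENCODE M21 annotation of GRCm38, Actb lies on the minus strand at chr5:142903115-142906754 and Actg1 on the minus strand at chr11:120345690-120348542. Tmsb4x lies on the minus strand at chrX:167207093-167209315, Pfn1 on the minus strand at chr11:70651850-70654644 and Pfn2 on the minus strand at chr3:57841895-57848079. Cfl1 lies on the plus strand at chr19:5490455-5495201, Cfl2 on the minus strand at chr12:54858809-54862877 and Dstn on the plus strand at chr2:143915320-143943324. The deposited values are per gene, not per exon or isoform.

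The actin coding sequences were identical at 88.7% of 1128 bases. The start of each is shown because this is where the proteins differ most; capitals mark the 9 of 60 bases at which they differ.
Actb: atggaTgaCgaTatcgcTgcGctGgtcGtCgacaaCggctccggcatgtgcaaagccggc
Actg1: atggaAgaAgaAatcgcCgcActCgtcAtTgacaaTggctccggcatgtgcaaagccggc
The profilins, by contrast, matched at only 62.0% of aligned coding positions, and 20 of the first 60 bases differed (capitals).
Pfn1: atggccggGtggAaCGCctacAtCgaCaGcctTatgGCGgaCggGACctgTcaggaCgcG
Pfn2: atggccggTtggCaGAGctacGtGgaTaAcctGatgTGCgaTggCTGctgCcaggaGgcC
Cfl1 matched Cfl2 at 71.9% and Dstn at 69.0% of aligned positions. Their first 30 bases are shown for codon 3 (capitals), a serine codon in all of them; phosphorylation of this serine by LIM kinases is known to switch the proteins off.
Cfl1: atggccTCTggtgtggctgtctctgatggt
Cfl2: atggcaTCTggagttacagtgaatgatgaa
Dstn: atggccTCAggagttcaggttgcggatgaa
Tmsb4x has the shortest coding sequence of the 8 genes, 135 bases for 44 codons, and is printed whole; capitals mark codons 18 to 23, which encode LKKTET, the actin-binding motif of beta thymosins.
Tmsb4x: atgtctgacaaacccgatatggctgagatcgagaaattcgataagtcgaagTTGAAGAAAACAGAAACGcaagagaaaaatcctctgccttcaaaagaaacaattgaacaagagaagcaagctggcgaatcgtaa

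Sequence shared with other genes bears on how reads can be assigned. Of the 50-base windows of the Actg1 transcript, 56.7% also occurred in a transcript of another gene (22 genes, 12 of them pseudogenes), against 14.2% for Actb and 9.11% for Cfl1. Windows of Tmsb4x, Pfn1, Pfn2, Cfl2 and Dstn had no such match (0.0%). Of the 266 shared windows of Actb, 179 occurred in Lrrc58, a protein-coding gene outside the actin family. Only 30 windows were shared between Actb and Actg1 themselves. How the authors' counting treated reads with several matches is unknown here, so the levels of Actg1, and less so those of Actb and Cfl1, are uncertain.

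The number of reads per library is unknown, since TPM keep no depth; the rows given account for 68.9% to 71.7% of the TPM total of a library. E17 replicate 1 stood apart from its partner. Its difference from E17 replicate 2 had an SD of 0.28 across genes on the log2(TPM + 1) scale, against 0.09 to 0.18 at the other ages, and its median ran from -0.04 in the shortest of 5 equal classes of transcript length to 0.37 in the longest. The 8 genes lie in the shortest 2 of these classes, and the values of each E17 library are given. Of 7 markers of cortical cells, 5 were in the table, and their summed level lay between 888 and 1482 TPM. The summed markers of meninges (7 of 7 in the table), vessels (4 of 14), blood (3 of 10) and choroid plexus (2 of 6) were higher in each of the 4 libraries of E12.5 and E14 than in any of the 6 later ones. The vessel sums were closest, with 69.1 TPM the lowest of the 4 and 32.2 TPM the highest of the 6, and the vessel marker Cspg4 did not follow its sum (0.42 to 0.57 TPM in the 4, up to 1.40 TPM later). The blood sum was mostly that of the hemoglobin gene Hbb-y, and other listed hemoglobin genes had no row. No marker was at 0 in all libraries.

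Actb was the steadier of the actins. Its level was 1856 and 2006 TPM (E12.5), 2031 and 1812 (E14), 2081 and 2180 (E15.5), 1678 and 1722 (E17) and 2104 and 1855 (P0). The libraries of E12.5 and P0 overlapped, and the highest library was 1.30 times the lowest. The low point was E17, at 1700 ± 31.2 TPM against 2130 ± 69.4 at E15.5 (mean ± SD, n = 2), a difference of -0.32 (SE 0.10) on the log2(TPM + 1) scale. Leaving out either E17 library changed this little, to -0.31 (replicate 1 omitted) or -0.34 (replicate 2 omitted). From E12.5 to P0 the difference was 0.03 (SE 0.10), and its sign turned when E12.5 replicate 1 (-0.02) or P0 replicate 1 (-0.06) was left out.

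Actg1 was lower than Actb in every library and varied more. It measured 764 and 811 TPM (E12.5), 910 and 846 (E14), 1055 and 1125 (E15.5), 1081 and 927 (E17) and 1121 and 1001 (P0). All later libraries exceeded those of E12.5. From E14 to E15.5 the difference was 0.31 (SE 0.10) and from E12.5 to P0 it was 0.43 (SE 0.10), a ratio of mean TPM of 1.35. In order of age, Actg1 therefore made up 29.0% ± 0.25, 31.4% ± 0.64, 33.8% ± 0.28, 37.1% ± 2.97 and 34.9% ± 0.21 of the summed actin transcripts (SD, n = 2). The E17 share was 39.2% in replicate 1 and 34.99% in replicate 2, so only the latter was near the P0 value. The sum of both actins ranged from 2704 TPM at E17 (2759 and 2649) to 3221 TPM at E15.5.

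Tmsb4x had the highest mean of all 6147 genes. Its level was 12357 and 11614 TPM (E12.5), 16169 and 16594 (E14), 20314 and 19370 (E15.5), 13594 and 18752 (E17) and 15025 and 13673 (P0). The libraries were thus higher at each age up to a peak at E15.5, with no overlap up to that age, and both P0 libraries lay below the E14 pair yet above the E12.5 pair. The mean was 19842 ± 667 TPM at E15.5, which is 1.98% of all transcripts, against 11986 ± 525 at E12.5 and 14349 ± 956 at P0. The steps were 0.45, 0.28, -0.31 and -0.16 on the log2(TPM + 1) scale, each with an SE of 0.18, the widest of the 8 genes. Between the E17 libraries Tmsb4x differed by -0.46 (replicate 1 minus replicate 2). Without E17 replicate 1 the step from E15.5 was -0.08 and the step to P0 was -0.39; without E17 replicate 2 they were -0.55 and 0.08, so the shape after E15.5 depends on which E17 library is used. In RNA from whole tissue, fewer cells of a type and less RNA per cell cannot be told apart.

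**Figure D1:**
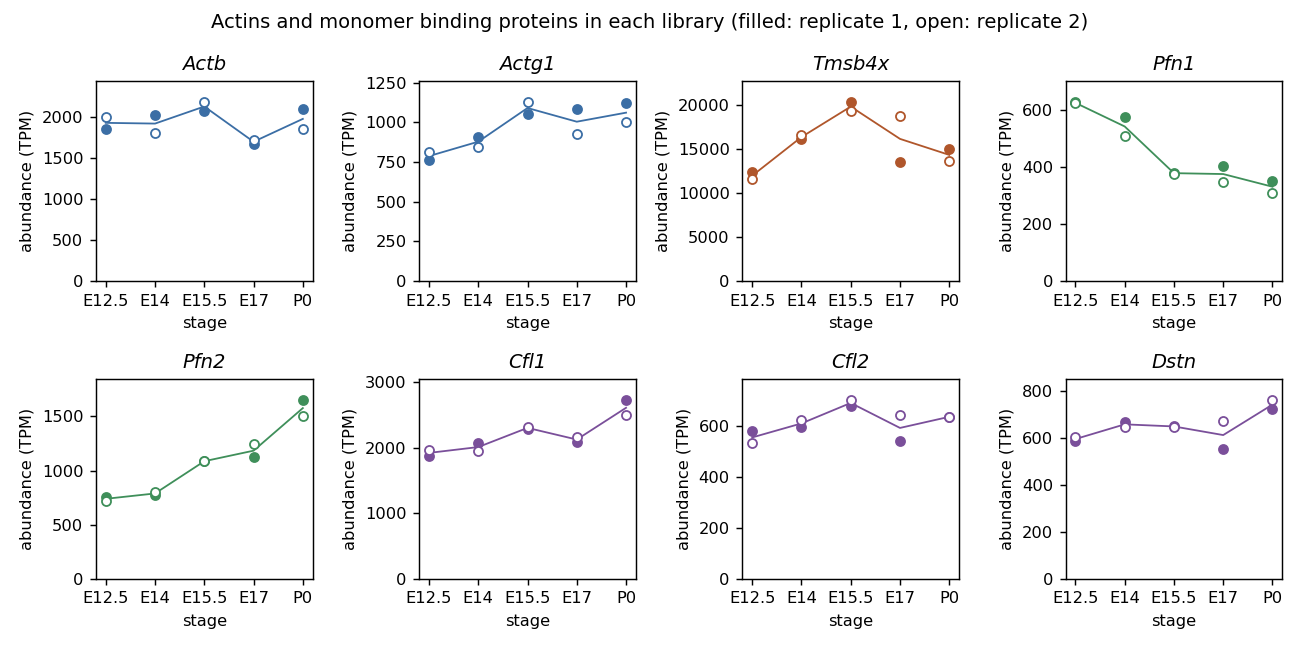
Abundance (TPM, each axis from 0) of the 8 genes at the 5 ages; filled and open points are replicates 1 and 2 and lines join the means. The P0 mean is 0.529 times the E12.5 mean for Pfn1 and 2.13 times for Pfn2, Tmsb4x peaks at E15.5, and the E17 replicates of Tmsb4x lie at 13594 and 18752 TPM.

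The profilins took opposite courses. Pfn1 measured 625 and 622 TPM (E12.5), 575 and 508 (E14), 380 and 376 (E15.5), 403 and 346 (E17) and 350 and 310 (P0). All 4 libraries of E12.5 and E14 were higher than all 6 later ones. The largest step was from E14 to E15.5, -0.51 (SE 0.10), and the difference from E12.5 to P0 was -0.92 (SE 0.10), where the median of all tested genes was -0.27. Pfn1 was the only gene of the 8 with a lower mean at P0 than at E12.5.

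Pfn2 measured 755 and 723 TPM (E12.5), 775 and 802 (E14), 1086 and 1086 (E15.5), 1126 and 1241 (E17) and 1650 and 1504 (P0). No library of an age overlapped with one of the preceding age. The steps were 0.09, 0.46, 0.12 and 0.41, with an SE of 0.09, and the total from E12.5 to P0 was 1.09 (SE 0.09), the largest of the 8 genes in size. Relative to the median of all tested genes it was 1.37 for Pfn2 and -0.64 for Pfn1.

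The profilin transcripts of the 5 ages thus differed in make-up. In order of age, Pfn2 was 54.2% ± 0.69, 59.3% ± 2.69, 74.2% ± 0.16, 75.9% ± 3.20 and 82.7% ± 0.30 of the summed profilin transcripts (SD, n = 2). Pfn2 stood at 1.18 transcripts per Pfn1 transcript at E12.5 and at 4.78 at P0. The E17 share was 73.7% in replicate 1, below both E15.5 libraries, and 78.2% in replicate 2, above them. The summed level over the 5 ages was 1363, 1329, 1464, 1558 and 1907 TPM, with 1529 and 1588 in the E17 libraries.

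Cell type marker sums also differed between ages, and not all of them followed a profilin over every step. The summed markers of neurons (7 of 8 in the table) were 2378 and 2411 TPM at E12.5 and 8629 and 9398 at P0, and those of progenitors (6 of 9) were 1385 and 1470 at E12.5 and 195 and 201 at P0. Across the largest Pfn1 step, neuron markers were at 3330 and 3221 TPM at E14 and at 6987 and 7100 at E15.5. Progenitor markers were at 1242 and 1179 TPM and then at 649 and 631. The meningeal markers were at 133 and 130 TPM at E14 and at 12.4 and 12.7 at E15.5. The choroid plexus markers were at 452 and 303 TPM at E12.5, at 1405 and 1517 at E14 and at 3.46 and 4.25 at E15.5. They were thus higher at E14 than at E12.5, whereas Pfn1 and the meningeal, blood and vessel sums were lower. Blood markers were at 1975 and 1880 TPM at E14 and at 9.26 and 9.84 at E15.5. Most of that was Hbb-y, a hemoglobin gene, at 1951 and 1863 TPM and then at 8.15 and 8.79. The listed hemoglobin genes Hba-a1, Hba-a2, Hbb-bs and Hbb-bt had no row, so the sum does not measure all blood. Vessel markers were at 69.1 and 74.2 TPM at E14 and at 19.5 and 18.9 at E15.5. The part of any of these cells in the profilin levels was not tested.

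**Figure D2:**
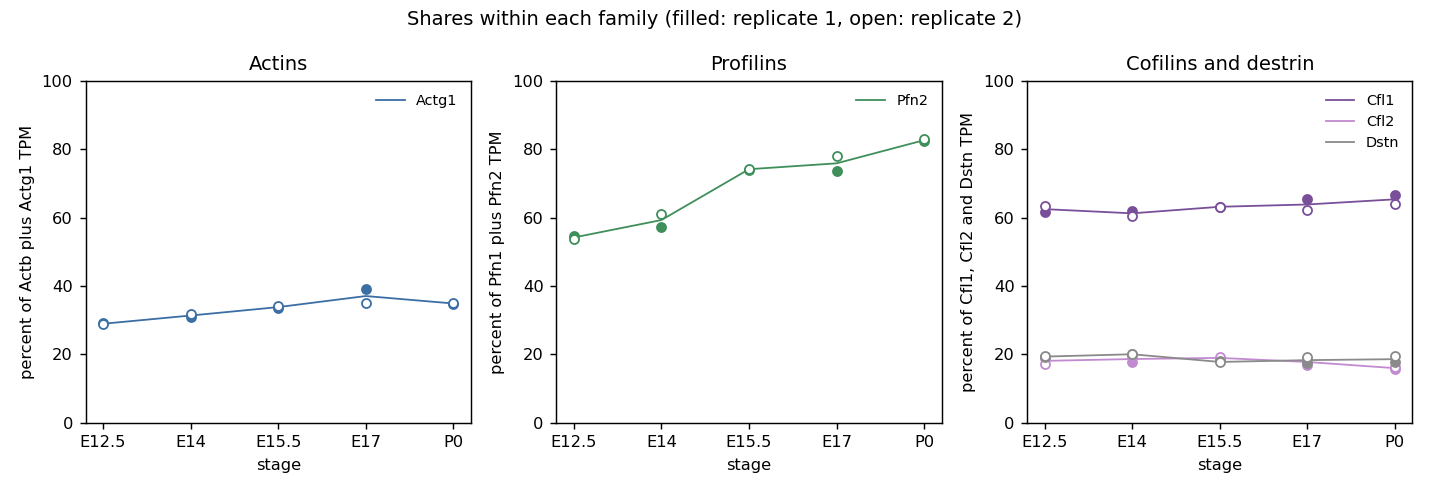
Share of each family's summed TPM (percent, 0 to 100) by age for Actg1 among actins, Pfn2 among profilins and Cfl1, Cfl2 and Dstn among cofilins; filled and open points are replicates 1 and 2 and lines join the means. The Pfn2 share runs from 54.2% at E12.5 to 82.7% at P0, while Cfl1 stays between 61.3% and 65.4%.

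Cfl1, the most abundant of the cofilin family, measured 1876 and 1968 TPM (E12.5), 2070 and 1953 (E14), 2292 and 2316 (E15.5), 2089 and 2164 (E17) and 2727 and 2495 (P0). Both P0 libraries were above every earlier one. The difference from E12.5 to P0 was 0.44 (SE 0.10), a ratio of mean TPM of 1.36, and the step from E17 to P0 was 0.30 (SE 0.10). Cfl1 and Actb overlapped at E12.5 and E14, and from E15.5 on every Cfl1 library was above every Actb library of its age.

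Cfl2, better known from muscle, measured 580 and 533 TPM (E12.5), 597 and 626 (E14), 681 and 703 (E15.5), 541 and 646 (E17) and 638 and 638 (P0). Its highest libraries were those of E15.5, as for Tmsb4x. Dstn measured 587 and 603 TPM (E12.5), 669 and 647 (E14), 650 and 648 (E15.5), 553 and 671 (E17) and 723 and 761 (P0), with both P0 libraries above all others. From E12.5 to P0 the difference was 0.20 (SE 0.09) for Cfl2 and 0.32 (SE 0.09) for Dstn. In both genes E17 replicate 1 was the lower of the E17 pair; replicate 1 minus replicate 2 was -0.26 for Cfl2 and -0.28 for Dstn on the log2(TPM + 1) scale.

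Within the family the shares moved little. Cfl1 was 62.5% ± 1.25, 61.3% ± 1.07, 63.2% ± 0.07, 63.9% ± 2.45 and 65.4% ± 1.86 of the summed transcripts over the 5 ages (SD, n = 2), with 65.6% and 62.1% in the E17 libraries. Cfl2 was 18.1% at E12.5 and 16.0% at P0, and Dstn was 19.4% at E12.5 and 18.6% at P0. The libraries of E12.5 and P0 overlapped for Dstn, but not for Cfl1 or Cfl2.

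Set against the actin transcripts, the binding proteins took different courses. In order of age, there were 4.42 ± 0.42, 5.87 ± 0.53, 6.17 ± 0.43, 6.0 ± 1.52 and 4.72 ± 0.09 Tmsb4x transcripts per transcript of Actb plus Actg1 (SD, n = 2). The libraries of P0 and E12.5 overlapped in part of their range, at 4.66 and 4.79 against 4.72 and 4.12. The E17 value was 4.93 in replicate 1 and 7.08 in replicate 2. Profilin transcripts per actin transcript numbered 0.502, 0.476, 0.455, 0.577 (0.554 and 0.599 in the E17 libraries) and 0.628, and both libraries of E17 and of P0 were above all 6 earlier libraries. The cofilin family stood at 1.13, 1.17, 1.13, 1.23 and 1.32, with 1.154 and 1.31 in the E17 libraries. These ratios compare transcripts, not proteins.

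**Figure D3:**
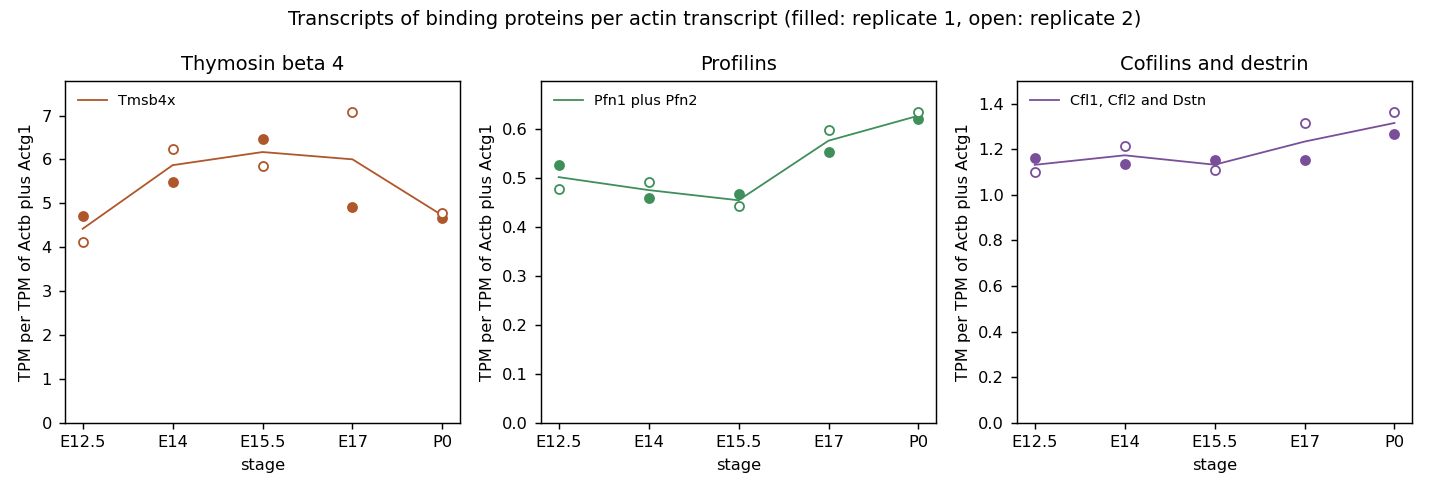
Summed TPM of Tmsb4x, of both profilins and of the cofilin family, each divided by the summed TPM of Actb and Actg1, by age (axes from 0); filled and open points are replicates 1 and 2 and lines join the means. Profilins per actin are lowest at E15.5 (0.455) and highest at P0 (0.628), and Tmsb4x per actin returns from 6.17 at E15.5 to 4.72 at P0.

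Together the 8 genes made up 1.91% ± 0.04 of all transcripts at the youngest age, then 2.38%, 2.82% ± 0.05, 2.38% ± 0.38 and, at birth, 2.33% ± 0.15 (SD, n = 2), with 2.11% and 2.65% in the E17 libraries. Tmsb4x alone was between 61.5% and 71.2% of this sum in every library. Without it the sum over the 5 ages was 0.715%, 0.741%, 0.833%, 0.759% (0.747% and 0.772% in the E17 libraries) and 0.894%. The peak of the whole group at E15.5 was thus carried by Tmsb4x, whereas the other 7 genes together were highest at P0.

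Tmsb4x was first at every age and was followed by Actb and Cfl1, which overlapped at E12.5 and E14, after which Cfl1 was the higher. At E12.5 the remaining order was Actg1, Pfn2, Pfn1, Dstn and Cfl2, with no overlap between neighbours. Pfn2 overlapped with Actg1 at E15.5 and was above it at E17 and P0. Pfn1 was the lowest of the 8 from E14 on, and Dstn and Cfl2 overlapped at E17. Among all 6147 genes the ranks by mean TPM were 19 for Cfl1, 28 for Actb, 95 for Pfn2, 109 for Actg1, 169 for Dstn, 184 for Cfl2 and 273 for Pfn1.

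Differences between ages were estimated by limma over the 6048 genes whose mean reached 1 TPM, and a gene counted as changed at a Benjamini-Hochberg adjusted p under 0.05. All 8 genes passed the filter on low values. From E12.5 to P0, 5 of the 8 met this threshold: Actg1, Pfn2, Cfl1 and Dstn were higher and Pfn1 was lower. Among all tested genes 78.2% met it, 27.1% as higher and 51.0% as lower, so 34.7% of the calls were higher. Under median-of-ratios scaling 50.1% of the calls were higher, with 75.6% of all genes and 7 of the 8 called. The libraries of the 2 ages did not overlap for 7 of the 8 genes, Actb being the exception, and for 90.9% of all tested genes. Since the 8 were chosen with these values known, nothing is read from either count or from which of the 8 met the threshold. Their median difference was 0.29, against -0.27 for all tested genes. Taken relative to that -0.27, the difference was 0.31 for Actb, 0.70 for Actg1, 0.53 for Tmsb4x, 0.72 for Cfl1, 0.47 for Cfl2 and 0.59 for Dstn.

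The steps between neighbouring ages were unequal over all genes. From E12.5 to E14, limma called 8.73% of tested genes and 0 of the 8, of which 1 had an unadjusted p under 0.05. Without E17 replicate 1 these were 29.3% and 2, and without E17 replicate 2 they were 29.2% and 2. From E14 to E15.5, 51.7% of all genes and 3 of the 8 were called, with Actg1 and Pfn2 higher and Pfn1 lower; without either E17 library it was 66.4% and 6.

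From E15.5 to E17, 25.0% of all genes and 1 of the 8 were called, Actb, which was lower. Without E17 replicate 1 these were 29.6% and 2, and without E17 replicate 2 they were 52.3% and 4. The count was 0 of 8 in each limma fit that left out 1 library of E12.5, E14 or E15.5, where 7.70% to 19.4% of all genes were called and 0 to 2 of the 8 had an unadjusted p under 0.05. It was also 0 with no filter on low values (23.0% of all genes, 2 of the 8 unadjusted) and under median-of-ratios scaling (28.9%, 1 of the 8 unadjusted).

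From E17 to P0, 41.7% of all genes and 3 of the 8 were called, Pfn2, Cfl1 and Dstn, all higher. Without E17 replicate 2 it was 62.3% and 6. Without P0 replicate 1 it was 27.1% and 1, and with 1 library of E12.5, E14 or E15.5 left out it was 34.3% to 35.6% and 1. Both the counts of the 8 and the share of all genes called thus differed between the fits that left out a library. Nothing is read from the counts or from which of the 8 were called.

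Some members followed similar courses over the 10 libraries. On the log2(TPM + 1) scale Pearson's r was -0.94 between Pfn1 and Pfn2, 0.91 between Pfn2 and Cfl1, 0.84 between Tmsb4x and Cfl2, and 0.30 between Actb and Actg1. These are descriptions over libraries that share their ages. Among all other genes whose mean reached 10 TPM, the course most like that of Pfn2 was that of Acot7 (r = 0.99), a long-chain acyl-CoA thioesterase, which went from 49.8 TPM at E12.5 to 178 at P0, followed by Pkia and Rab33b (both 0.99). Pkia encodes an inhibitor of protein kinase A. For Pfn1 the nearest were Zcchc3, Slc25a10 and Pdlim7 (all 0.99), with Zcchc3 at 66.8 TPM at E12.5 and 13.8 at P0.

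Actg1 was most like Arpc1a (r = 0.95), a subunit of the Arp2/3 complex that starts branched filaments, at 107 TPM at E12.5 and 145 at P0, then Trappc9 (0.95) and Mkrn2 (0.94). Actb was most like Ndufv1 (0.90), Bre (0.89) and Clpp (0.85). Tmsb4x was most like Lamtor5 (0.91), then Timm10b and Spg21 (both 0.87). Cfl1 was most like Ap2s1 (0.98), a subunit of the clathrin adaptor AP-2, then Ptges2 and Prdx5 (both 0.97). Cfl2 was most like Myeov2 (0.94) and Dstn most like Cox6b1 (0.94), a subunit of cytochrome c oxidase. The genes of each trio were picked as the highest r of all, so high values are a product of the choice.

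The rest of the actin system was covered by 10 lists of 151 genes, none of them a member; 110 were in the table and 109 were tested. From E12.5 to P0, 44 rose, 43 fell and 22 did not pass, a share of 79.8% beside the 78.2% of all tested genes. Their median difference was 0.04 on the log2(TPM + 1) scale. With libraries scaled by the median of their gene ratios, so that the median gene is near no change, 56 rose and 33 fell. The steps in order had 5 rises and 3 falls, then 32 and 35, then 12 and 9, then 25 and 27. Summed markers of neurons, progenitors, meninges, vessels, blood and choroid plexus also differed between E12.5 and P0. Their part in the pathway changes was not tested.

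LIM kinases phosphorylate cofilin, PAK and ROCK kinases activate LIM kinases, and slingshot phosphatases reverse the mark. Of 10 such genes tested, 3 rose and 4 fell. Limk2 rose from 33.3 and 35.5 TPM at E12.5 to 94.4 and 84.1 at P0, a difference of 1.35 (SE 0.10, limma adjusted p = 1.28e-07). Pak1 rose from a mean of 74.2 to 169 TPM, by 1.17 (SE 0.07, limma adjusted p = 3.17e-08). Pak3 rose by 0.25 (SE 0.10, limma adjusted p = 0.039), a call lost when any library of E12.5, E14 or E15.5 was left out, and also without P0 replicate 2, where the value itself was 0.081. Pak4 fell from 35.3 and 36.2 TPM to 10.2 and 9.60, with a difference of -1.75 (SE 0.16, limma adjusted p = 9.24e-07). Rock1 (-0.997), Rock2 (-0.63) and Pak2 (-0.43) also fell, but under median-of-ratios scaling Pak2 stood at -0.16 and lost its call. Limk1 (-0.09), Ssh1 (-0.36) and Ssh2 (-0.07) did not pass, and Ssh1 passed without either E17 library or with only the ages compared. The 2 LIM kinases therefore stood at 57.2 TPM (Limk1) and 34.4 TPM (Limk2) at E12.5 and at 53.5 and 89.3 TPM at P0. Over the same interval their substrate transcripts Cfl1, Cfl2 and Dstn together went from 3074 to 3991 TPM.

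The other monomer binding and turnover proteins were also mixed, with 4 of 12 rising, 4 falling and 4 not passing (median 0.10). Twf1, a twinfilin that binds monomers and barbed ends, fell from a mean of 161 to 97.4 TPM (-0.72, SE 0.07, limma adjusted p = 2.24e-06), while Twf2 was at 0.27 and did not pass; it passed without either E17 library or with only the ages compared. Cap1, a cyclase-associated protein that recycles monomers from cofilin, fell by 0.28 (limma adjusted p = 0.016), a call lost without E12.5 replicate 2 or P0 replicate 1, and Cap2 stood at 0.04 and did not pass. Wdr1, which speeds up disassembly with cofilin, rose by 0.28 (limma adjusted p = 0.015), a call lost without E12.5 replicate 1 or P0 replicate 1. Of the coronins, which act on filaments and the Arp2/3 complex, Coro1a rose by 1.29 and Coro7 by 0.95, and Coro2b (-0.84) and Coro1b (-0.45) fell. Mtss1, which binds monomers and membranes, rose by 0.62. Coro1c (-0.16) and Gmfb (0.16) did not pass in the fit to all libraries, and both passed without either E17 library. Under median-of-ratios scaling 7 of the 12 rose and 2 fell: Cap1 (-0.0080) and Coro1b (-0.18) lost their calls, and Twf2 (0.53), Gmfb (0.44) and Cap2 (0.29) passed. Twf2 (0.59) and Cap2 (0.51) also passed under quantile normalization.

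MRTF coactivators sense actin monomers and drive SRF target genes, among them the actins. Of that list Srf itself, Mrtfa, Phactr1, Phactr2 and Phactr3 had no row, and 3 genes were tested. Phactr4, a protein phosphatase regulator that binds monomers, fell from a mean of 61.5 to 10.5 TPM (-2.44, SE 0.16, limma adjusted p = 5.13e-08). Mkl2, an MRTF, stood at 0.04 and Scai, an MRTF inhibitor, at 0.23, and neither passed. Under median-of-ratios scaling Scai passed (0.50), and under quantile normalization both did (0.41 for Scai, 0.44 for Mkl2). Scai also passed without P0 replicate 1 (0.41) and with only the ages compared (0.23).

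The Arp2/3 complex was the list with the most even direction. Of 10 subunit genes 8 rose and 1 fell, with a median of 0.47. The largest rise was that of Actr3b, an isoform of the Arp3 subunit, from 17.8 to 61.7 TPM (1.74, SE 0.09), and the fall was that of Arpc1b, from 19.9 to 11.4 TPM (-0.75, SE 0.11). Arpc5l, named here after its value was seen, was at 0.15 and did not pass. Under both median-of-ratios scaling and quantile normalization 9 rose and 1 fell. Of 13 Arp2/3 activators, 8 rose and 5 fell (median 0.44). The largest rise was that of Wasf1, which encodes WAVE1 (1.52, SE 0.09), and the largest fall that of Wasf2, which encodes WAVE2 (-1.78, SE 0.17). The other paralog, Wasf3, named here after its value was seen, rose by 0.64 (SE 0.10).

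**Figure D4:**
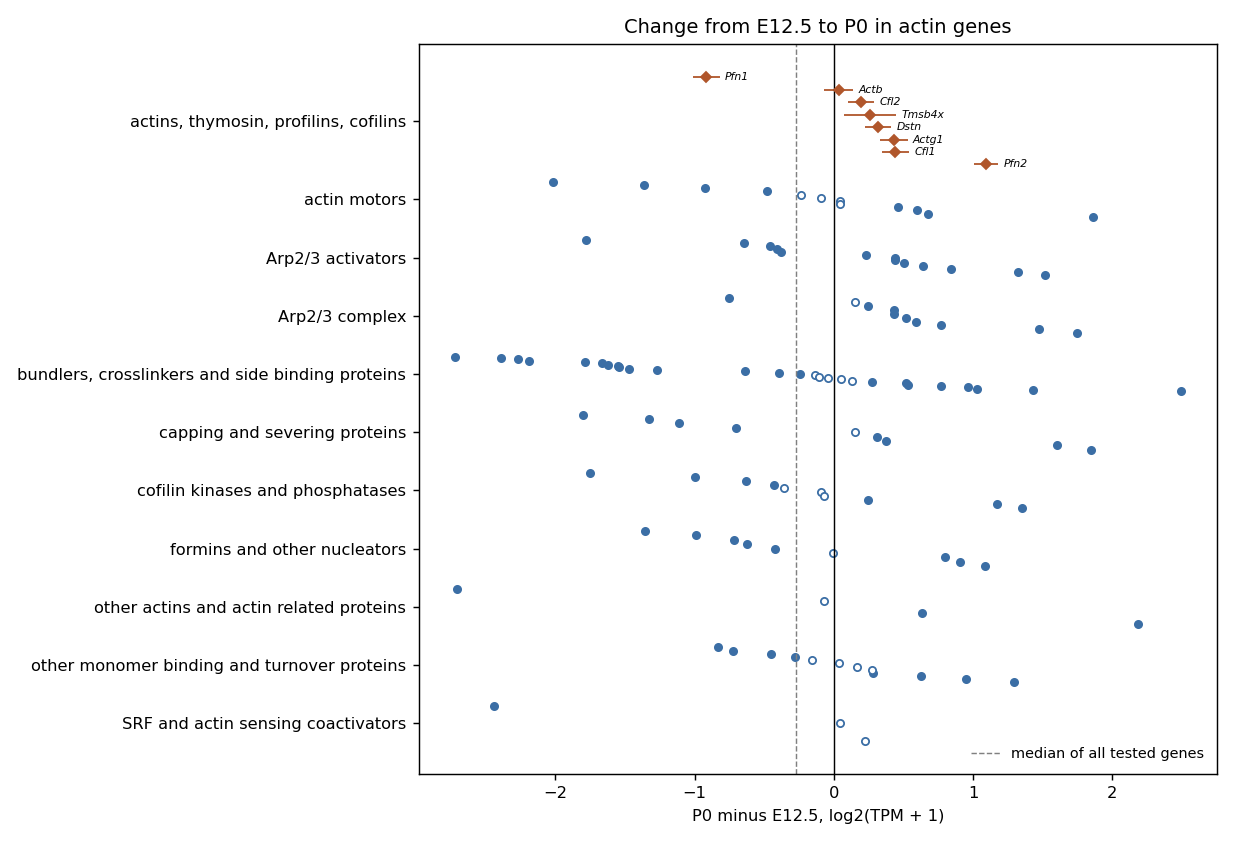
Difference from E12.5 to P0 on the log2(TPM + 1) scale; diamonds with bars (SE) are the 8 genes, circles are the genes of the 10 other lists, filled where the limma adjusted p was under 0.05, and vertical position within a list only separates points. The dashed line is the median of all tested genes (-0.27); 7 of the 8 genes lie right of 0 and Pfn1 lies at -0.92.

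The other lists held both rises and falls. Of 9 formins and other nucleators tested 3 rose and 5 fell. Among those whose mean reached 10 TPM, the formin Fhod3 (1.08) and Enah, a filament elongation factor that recruits profilin (-0.99), were farthest apart. The formin Fhod1 had a lower mean (1.29 TPM) and stood at -1.36, and it is named here after its value was seen. The median of the 9 was -0.42, and 0.09 under quantile normalization. Of 9 capping and severing proteins 4 rose and 4 fell, led, among genes whose mean reached 10 TPM, by Tmod2, a tropomodulin of neurons (1.85), and Capza1, a subunit of capping protein (-1.33). Svil, which encodes the actin-binding protein supervillin and had a lower mean (2.35 TPM), stood at -1.80; it is named here after its value was seen. Of 12 motor genes 4 rose and 4 fell, with the myosin light chains Myl6b (1.86) and Myl12a (-2.02) farthest apart. Of 27 bundling, crosslinking and side binding proteins 8 rose and 14 fell (median -0.25, or 0.03 under median-of-ratios scaling), between Syn1 (2.49), a synaptic vesicle protein that binds actin, and Msn, or moesin (-2.72), which ties filaments to the membrane. Of 4 other actins and actin related proteins 2 rose and 1 fell. Actl6b (2.19) and Actl6a (-2.71) lead that list, and both are known as subunits of chromatin remodelling complexes. All of these named changes passed limma's test at a Benjamini-Hochberg adjusted p under 0.05.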

How the data were processed

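The values analysed were the TPM per gene and library that the authors deposited, per the file headers, for 6147 genes in 10 libraries, 2 at each of 5 ages. Alignment to GRCm38.p5 with STAR and counting with Subread are named in the submitters' processing notes, without versions. The gene lengths, the annotation and the rule for the listed genes are not stated in the labels or headers, and read depth is unknown. RNA that went with the pellet of the cleared lysate was not sampled. Because TPM are shares of a fixed total, a rise of abundant genes lowers the rest.

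Columns were assigned to libraries through their names, with 0 left over. Genes with a mean under 1 TPM were left out (99 genes). Values were taken as log2(TPM + 1), so differences understate the change of low genes, and fitted with limma 3.58.1 in R 4.3.3: 1 mean per age over all 10 libraries, 5 residual degrees of freedom, variance trend, and Benjamini-Hochberg adjustment over all 6048 genes. With 2 libraries per age precision rests on this shared spread; the median SE was 0.107. The script was tested on simulated data. Shares and ratios used TPM with no pseudocount.

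The 9 genes, the 10 pathway lists and the marker lists were chosen with earlier results of these data known. The values of 1 marker list are not reported here. Named pathway genes were the largest rise and fall from E12.5 to P0 in each list among called genes whose mean reached 10 TPM and whose libraries did not overlap, and every gene of the cofilin regulator, monomer binding and SRF lists. Nearest genes were the 3 with the highest Pearson r for each member, without provisional gene names (Gm, LOC and Rik).

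Positions, transcripts and coding sequences came from GENCODE M21 (GRCm38), matched by gene identifier for 6146 of 6147 genes. Sequences were compared with Biopython 1.88 and BLAST 2.17.0, and Python 3.11.15 was used for tables (pandas 2.3.3, numpy 2.4.6) and for plots (matplotlib 3.10.9). The alternatives tried were a pseudocount of 0.1 or 10 TPM, no filter or a minimum mean of 5 TPM, median-of-ratios scaling, quantile normalization, fits on only the ages compared, a replicate block, an adjusted p under 0.01, and leaving out each library in turn.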

Additional observations from a re-analysis of the deposited data

How the results depend on the processing

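With 2 libraries per age, counts of pathway genes called moved between fits, and the cause was not tested. In order of rises and falls, the 44 and 43 from E12.5 to P0 and the 32 and 35 from E14 to E15.5 stayed within 1.5 times under all alternatives. Using only the ages compared gave 16 and 25 from E12.5 to E14, 8 and 13 from E17 to P0, and 0 and 0 from E15.5 to E17 (limma; 16 and 12 at an unadjusted p under 0.05). In the 4 steps it called 41.0%, 75.6%, 1.98% and 18.6% of all genes and 5, 7, 0 and 0 of the 8 members (1 and 1 of the last at an unadjusted p under 0.05), and from E12.5 to P0 82.4% and 7. At an adjusted p under 0.01 the pathway counts were 2 and 0 from E12.5 to E14 (limma; 8 and 13 unadjusted under 0.05), 11 and 16 from E17 to P0, and 2 and 5 from E15.5 to E17. Median-of-ratios scaling gave 15 falls from E15.5 to E17, and quantile normalization gave 16 there and 5 from E12.5 to E14. With 1 library left out, E12.5 to E14 had 0 to 11 rises and 0 to 16 falls (limma; both 0 without E12.5 replicate 1, with 5 and 7 unadjusted under 0.05), E15.5 to E17 had 1 to 38 and 3 to 22, and E17 to P0 had 14 to 29 and 19 to 46; the high ends came without an E17 library. Deviations of replicate 1 from the mean of its age correlated between ages with r from -0.37 to 0.11. The sign of r depends on which library is numbered 1, so these values cannot exclude a pairing of samples. With a replicate block the falls from E12.5 to E14 were 1, and no other pathway count moved past 1.5 times. In that fit 0 of the 8 members were called from E15.5 to E17 (limma, 2 at an unadjusted p under 0.05, 23.3% of all genes).

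Among members, the difference P0 minus E12.5 in the Actg1 share was 5.93 percentage points, or 4.77 under quantile normalization; in the Pfn2 share 28.5, or 29.7; and in the summed share of all TPM 0.415, or 0.146. Quantile normalization fixes Tmsb4x, the top gene of every library, at 0. Median-of-ratios scaling moved 22 and quantile normalization 14 of the 40 member differences by over 1 SE, and leaving out a library 20 of 400. No member difference past the threshold changed sign. Differences that far from 0 could hardly turn, so nothing is read from this.

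Signs turned for pathway genes that had not passed: Coro1c (0.12), Limk1 (0.18) and Ssh2 (0.20) under median-of-ratios scaling, Limk1 (0.10) and Ssh2 (0.23) under quantile normalization, and, with 1 library left out, Ssh2 (-0.24 to 0.10, highest without P0 replicate 1), Cap2 (-0.10 to 0.17) and Mkl2 (-0.081 to 0.16, both lowest without P0 replicate 2). The cause was not tested. Unknown depth limits all values.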
